A study of Mus musculus with 16 samples.

Results

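The transcripts described here encode the adaptors, kinases and co-receptor that carry a signal from Toll-like receptors. They were taken by gene name, as the probe sets annotated to Myd88, Tirap, Ticam1, Ticam2, Irak1, Irak2, Irak3, Irak4, Traf6 or Ly96. This list of names was chosen with earlier results of these data known. Of these 10 genes 9 were measured, each by 1 probe set, out of 19937 genes in all. Irak4 had no probe set listed under its name and is not analysed here. Expression was measured in macrophages grown from mouse bone marrow, on 1-channel Affymetrix arrays that received biotin-labelled total RNA. The groups were NFAT5 KO cells given LPS, wild-type cells given LPS, NFAT5 KO cells left unstimulated and wild-type cells left unstimulated, with 4 arrays in each and the 129sv background shared by all. LPS is a cell wall component of Gram-negative bacteria, and NFAT5 is a transcription factor known for its role in the response to hypertonic stress. The sources used here do not state the dose and duration of LPS, the age of the mice, which exons the KO allele lacks or whether deletion was confined to some cells. The labels do not state that the arrays of a group came from separate mice or cultures, so the spread behind each p-value may be partly technical.

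When LPS reaches a macrophage, the protein made from Ly96 (MD-2) holds it against the ectodomain of Toll-like receptor 4. Inside the cell the bridging adaptor Tirap recruits Myd88, which assembles with the kinases IRAK4, IRAK1 and IRAK2 and hands the signal to the ubiquitin ligase TRAF6, the start of NF-kB and MAP kinase activation. A separate route runs from endosomes through the bridging adaptor Ticam2 (TRAM) to Ticam1 (TRIF), which leads to interferon production. Irak3 (IRAK-M) lacks conventional kinase activity and is known as a brake on the Myd88 route in macrophages.

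Nfat5 itself had log2 levels of 8.67 to 9.29 in KO cells with LPS, against 9.80 to 10.56 in wild-type cells with LPS, with no overlap. Without LPS it lay at 8.93 to 9.20 in KO cells and at 9.15 to 9.67 in wild-type cells, which overlap, and whether its probes fall in the deleted stretch is not known here. The 8 macrophage markers were all measured, their mean log2 level per array lying between 12.21 and 12.23 in KO cells with LPS, 12.02 and 12.15 in wild-type cells with LPS, 12.03 and 12.18 in KO cells and 12.32 and 12.4 in wild-type cells. Among them Cd14 had means of 12.61 and 12.82 in KO and wild-type cells with LPS, and of 10.58 and 11.78 without. In the same order, Fcgr1 had 11.34 and 11.27 with LPS, and 10.82 and 11.54 without. Mertk had 9.77 and 8.98 with it, and 10.92 and 10.6 without. The list mean therefore includes changes of single genes. Mean levels of the T cell, B cell, neutrophil and dendritic cell lists stayed between 5.44 and 6.74 on every array. The mean over 6 stromal markers was 7.15 to 7.26 and 7.33 to 7.37 in KO and wild-type cells with LPS, and 6.54 to 6.75 and 6.46 to 6.73 without it. Among these 6, Pdgfrb spanned 6.41 to 11.16, and its part in the results was not tested. Its means were 9.91 and 10.81 in KO and wild-type cells with LPS, and 6.76 and 6.93 without. Group means spanned 7.96 to 8.11 for Col1a1, 7.48 to 7.65 for Col1a2 and 7.12 to 7.37 for Col3a1. They spanned 6.07 to 6.27 for Dcn and 4.03 to 4.13 for Lum. Genotype and sex largely coincided: on KO arrays numbered 1 to 3, with and without LPS, the Y-linked Kdm5d lay above Xist, and on all 8 wild-type arrays and both KO arrays numbered 4 it lay below. In a bulk sample fewer cells of a type and less RNA per cell cannot be told apart.

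The 250 bases before the transcription start are shown for Irak3, Irak2, Myd88 and Irak1. Irak3, Irak2 and Myd88 rose in both genotypes and had the largest responses to LPS in KO cells, and Irak1 was not called. In wild-type cells the response of Ticam2 (0.96) was above that of Myd88 (0.87). The sequences are RefSeq promoters of build GRCm38.p6, read 5′ to 3′ on the strand of the gene, and capitals mark the motif matches. Irak3 has a further annotated start downstream, and the outermost is shown.
Irak3: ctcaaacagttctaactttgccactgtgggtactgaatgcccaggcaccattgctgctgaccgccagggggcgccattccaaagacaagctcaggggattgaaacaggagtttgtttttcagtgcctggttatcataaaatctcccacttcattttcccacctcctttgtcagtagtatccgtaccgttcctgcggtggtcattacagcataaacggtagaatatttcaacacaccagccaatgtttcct
Irak2: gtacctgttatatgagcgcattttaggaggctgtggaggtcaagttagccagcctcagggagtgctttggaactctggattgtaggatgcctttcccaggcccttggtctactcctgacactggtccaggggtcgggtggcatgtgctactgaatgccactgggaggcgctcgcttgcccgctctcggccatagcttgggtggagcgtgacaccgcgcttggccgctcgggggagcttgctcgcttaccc
Myd88: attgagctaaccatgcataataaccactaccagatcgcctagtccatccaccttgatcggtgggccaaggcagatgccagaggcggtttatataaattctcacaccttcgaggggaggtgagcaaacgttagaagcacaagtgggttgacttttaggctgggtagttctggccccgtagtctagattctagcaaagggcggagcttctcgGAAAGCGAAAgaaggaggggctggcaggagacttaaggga
Irak1: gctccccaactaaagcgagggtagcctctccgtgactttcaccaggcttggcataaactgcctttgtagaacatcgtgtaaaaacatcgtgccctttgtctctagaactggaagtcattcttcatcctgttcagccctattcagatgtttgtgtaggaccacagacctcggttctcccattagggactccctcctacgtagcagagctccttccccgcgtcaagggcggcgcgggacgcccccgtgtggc
These windows are chr10:120202131-120202380 on the minus strand for Irak3, chr6:113638217-113638466 on the plus strand for Irak2, chr9:119340019-119340268 on the minus strand for Myd88 and chrX:74023922-74024171 on the minus strand for Irak1. The Irak3 window lies within the annotated lncRNA Gm38500, the Irak1 window overlaps the miRNA gene Mir718, and no other gene is annotated in those of Irak2 and Myd88. Both strands were searched for the kappaB consensus bound by NF-kB, the interferon response motif GAAANNGAAA, the AP-1 motif TGANTCA and TonE, the tonicity element bound by NFAT5. Among the 4 windows the only match was GAAAGCGAAA in Myd88, the interferon response motif, 40 to 31 bases before the start. Of 32851 promoters in the RefSeq table, 2.98% held that motif in the same window, 3.9% the kappaB consensus, 6.75% the AP-1 motif and 4.31% TonE. Of the 10 genes 8 had an entry, with 11 windows in all, and the windows not shown, for other starts of Irak1 and Irak3 and for Irak4, Ticam1, Tirap and Traf6, held no match. No motifs overlapped. A match is only a stretch of letters, and no match says only that these letters are not in this window.

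**Figure D1:**
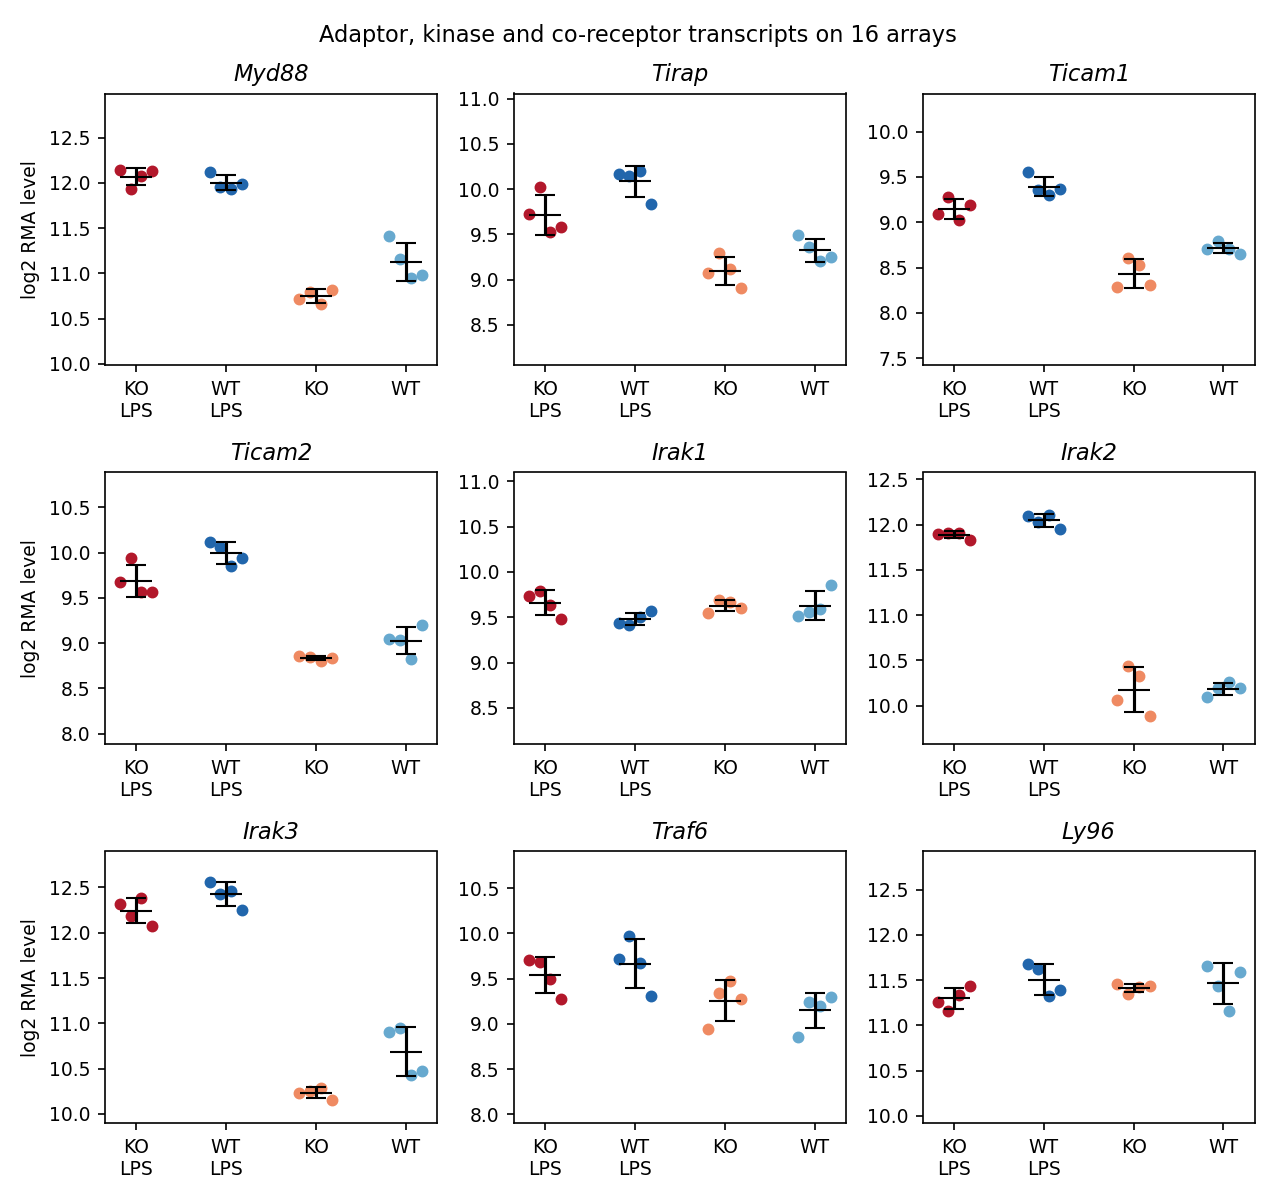
Log2 RMA level (vertical axis, spanning 3 log2 units in each panel) of the 9 measured genes on each of the 4 arrays per group (points, replicate numbers 1 to 4 from left to right), with the mean and SD in black. Irak2 and Irak3 stood apart between LPS and unstimulated cells in both genotypes, and Irak1 and Ly96 overlapped in all 4 groups.

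LPS raised most of the set in both genotypes. In KO cells 6 of 9 genes rose and 0 fell, where 12.0% of all genes rose and 12.7% fell (24.7% in either direction). In wild-type cells 7 of 9 rose and 0 fell, where 14.0% of all genes rose and 16.8% fell (30.8% in either direction). A call is a limma p-value under 0.05 after Benjamini-Hochberg adjustment over all genes. The shares over all genes include dim genes, whereas the 9 had mean levels of 8.92 to 11.49 beside a median of 7.11. A stricter filter on dim genes left 11833. Of these 2411 rose and 2431 fell in KO cells, and 2542 rose and 3244 fell in wild-type cells. The median log2 change of the set was 0.71 in KO and 0.76 in wild-type cells, beside 0.01 and 0.062 over all genes. Irak1 and Ly96 were called in neither genotype. The plot of the responses to LPS shows the sizes side by side.

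Ly96, which presents LPS to Toll-like receptor 4, was called in neither genotype. It lay between 11.16 and 11.44 in KO cells with LPS and between 11.35 and 11.46 without, a difference of -0.12 (95% interval -0.35 to 0.12). Wild-type levels were 11.33 to 11.68 with LPS and 11.16 to 11.66 without, a difference of 0.04 (interval -0.19 to 0.27). Adjusted p was 0.564 in KO and 0.822 in wild-type cells. All 4 groups overlapped. With quantile normalisation of the gene table the KO difference was -0.285 and was called (adjusted p = 0.0372).

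Myd88, the central adaptor, responded in both genotypes. KO cells had log2 levels of 12.14, 11.93, 12.08 and 12.13 with LPS, against 10.72, 10.79, 10.66 and 10.82 without, a rise of 1.32 ± 0.0987 (SE, n = 4 each) or 2.5-fold (limma adjusted p = 8e-09). Wild-type cells had 12.12, 11.95, 11.93 and 11.99 with LPS, against 11.41, 11.16, 10.95 and 10.98 without, a rise of 0.87 ± 0.0987 or 1.83-fold (adjusted p = 1.17e-06). With LPS the genotypes overlapped, at means of 12.07 in KO and 12.00 in wild-type cells, whereas every unstimulated KO array lay below every unstimulated wild-type array.

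The remaining adaptors rose in both genotypes. Ticam2, the bridge to Ticam1, lay between 9.56 and 9.94 in KO cells with LPS, against 8.80 to 8.86 without, and rose by 0.85 ± 0.101 (1.8-fold). In wild-type cells it lay between 9.85 and 10.12 with LPS, against 8.83 to 9.20 without, and rose by 0.96 ± 0.101 (1.95-fold). Ticam1, the adaptor of the interferon route, rose by 0.71 ± 0.0929 in KO and 0.68 ± 0.0929 in wild-type cells, or 1.64-fold and 1.6-fold. Its levels were 9.03 to 9.28 with LPS against 8.28 to 8.61 without in KO cells, and 9.30 to 9.55 against 8.65 to 8.79 in wild-type cells.

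Tirap, the bridge to Myd88, had log2 levels of 9.73, 10.02, 9.53 and 9.58 in KO cells with LPS, against 9.07, 9.29, 9.12 and 8.91 without. It rose there by 0.62 ± 0.119 or 1.53-fold. In wild-type cells it had 10.17, 10.14, 10.20 and 9.83 with LPS, against 9.49, 9.36, 9.21 and 9.25 without, a rise of 0.76 ± 0.119 or 1.69-fold. Adjusted p for these 3 genes ran from 2.85e-06 (Ticam2) to 0.000587 (Tirap) in KO and from 4.22e-07 (Ticam2) to 5.34e-05 (Tirap) in wild-type cells, and the groups with and without LPS did not overlap.

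Among the IRAK transcripts Irak3 and Irak2 rose and Irak1 was not called. Irak3, the inhibitory member, had the largest response in KO cells. Its log2 levels were 12.32, 12.19, 12.38 and 12.07 in KO cells with LPS, against 10.23, 10.25, 10.29 and 10.15 in unstimulated KO cells. Every array with LPS was above every array without it, by a log2 difference of 2.01 ± 0.118 (SE, n = 4 each), or 4.03-fold (limma adjusted p = 3.81e-10). In wild-type cells Irak3 stood at 12.56, 12.43, 12.46 and 12.25 with LPS, against 10.90, 10.95, 10.43 and 10.47 without. The rise there was 1.74 ± 0.118, or 3.34-fold (adjusted p = 1.65e-09), and the 2 groups did not overlap. In the order of group means, KO with LPS (12.24) overlapped wild type with LPS (12.43), and both lay above unstimulated wild type (10.69) and unstimulated KO (10.23).

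Irak2, which sustains signalling late in the response, was the other strongly induced member. It had log2 levels of 11.90, 11.91, 11.91 and 11.83 in KO cells with LPS, against 10.06, 10.44, 10.33 and 9.89 in unstimulated KO cells, a rise of 1.71 ± 0.102 or 3.27-fold (adjusted p = 4.4e-10). In wild-type cells the levels were 12.09, 12.03, 12.11 and 11.95 with LPS, against 10.10, 10.20, 10.26 and 10.19 without, a rise of 1.86 ± 0.102 or 3.63-fold (adjusted p = 9.85e-11). Neither pair of groups overlapped. Unstimulated KO and wild-type cells overlapped each other, with means of 10.18 and 10.19.

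Irak1, an active kinase of the receptor complex and encoded on chromosome X, was not called with LPS. Its log2 levels were 9.73, 9.79, 9.63 and 9.48 in KO cells with LPS and 9.55, 9.69, 9.67 and 9.60 in unstimulated KO cells, a difference of 0.03 (95% interval -0.16 to 0.23, adjusted p = 0.887). In wild-type cells they were 9.44, 9.41, 9.50 and 9.57 with LPS and 9.51, 9.56, 9.59 and 9.86 without, a difference of -0.15 (interval -0.34 to 0.05, adjusted p = 0.258). The 4 groups overlapped, and their means spanned 0.18.

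Traf6, the ubiquitin ligase at the end of the Myd88 chain, had the smallest called rise. In KO cells it stood at 9.71, 9.68, 9.50 and 9.28 with LPS and at 8.94, 9.34, 9.47 and 9.27 without, overlapping groups that differed by 0.29 ± 0.146 (interval -0.02 to 0.59, adjusted p = 0.194). In wild-type cells it stood at 9.72, 9.97, 9.67 and 9.31 with LPS and at 8.86, 9.24, 9.20 and 9.30 without, a rise of 0.52 ± 0.146 or 1.43-fold (adjusted p = 0.0101) with groups that only just failed to overlap. The arrays numbered 4 differed by 0.01 in either genotype, and those numbered 1 by 0.77 in KO and 0.85 in wild-type cells. That the call was made in 1 genotype does not show a difference between them: the responses differed by -0.23 ± 0.206 (adjusted p = 0.809).

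**Figure D2:**
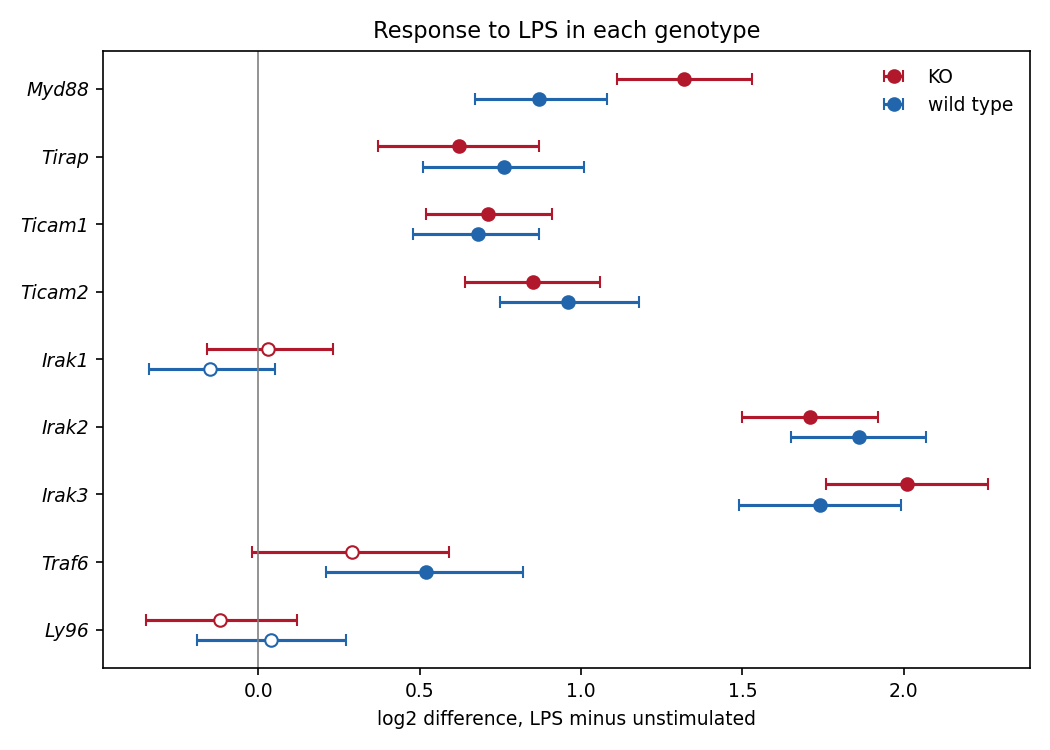
Log2 difference between LPS and unstimulated cells (horizontal axis) for each gene in KO (upper, red) and wild-type cells (lower, blue), with 95% intervals from the limma fit; filled points had an adjusted p under 0.05. Irak3 and Irak2 lie farthest right, at 2.01 and 1.71 in KO and 1.74 and 1.86 in wild-type cells, while both intervals of Irak1 and of Ly96 span 0.

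The next comparison asks whether the loss of NFAT5 alters these transcripts in a given state. With LPS, 0 of 9 genes passed the threshold in either direction, where 3.05% of all genes did in the limma fit (1.8% higher and 1.26% lower in KO). Without adjustment p was under 0.05 for 3 of them, Tirap, Ticam2 and Ticam1, as for 11.3% of all genes. Of the 9 differences 7 were negative, as were 53.4% over all genes, with a median of -0.18 beside -0.01. Arrays of the 2 genotypes with the same replicate number deviated together, and a fit that blocks on this number is quoted wherever a call differs.

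With LPS, Tirap showed the largest difference between the genotypes. From the levels given above, KO minus wild type was -0.44, -0.12, -0.68 and -0.25 for the arrays numbered 1 to 4. The groups overlapped, since array 2 of KO cells with LPS (10.02) was above array 4 of wild-type cells with LPS (9.83). The difference was -0.37 ± 0.119 (interval -0.62 to -0.12, adjusted p = 0.121). With the replicate block it was -0.37 ± 0.0957 and called (adjusted p = 0.0339). It was also called without either of those arrays (-0.474 with adjusted p = 0.0396, and -0.457 with 0.0488). With a sex term the difference was -0.53 (adjusted p = 0.0574), and with that term and the block -0.37 (0.342). Over the 10 arrays in which Xist exceeded Kdm5d it was -0.51 (0.209).

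For the Ticam pair, Ticam2 differed by -0.31 ± 0.101 (interval -0.52 to -0.10, adjusted p = 0.134), lower in KO for 4 of 4 numbers, and was called only in the fit without array 2 of KO cells with LPS (-0.393, 0.0452), among the 28 alternatives run. Ticam1 differed by -0.25 ± 0.0929 (interval -0.44 to -0.05, adjusted p = 0.236), and no KO array reached the lowest wild-type array. Irak2 had non-overlapping groups as well, at a difference of -0.16 ± 0.102 (adjusted p = 0.703). In neither state was it counted how many of all genes had non-overlapping genotypes or a difference of 1 sign for every number. Such separations are therefore only descriptions of the arrays here. Irak3 differed by -0.18 (interval -0.43 to 0.06), Ly96 by -0.21 (-0.44 to 0.03), Traf6 by -0.12 (-0.43 to 0.18) and Myd88 by 0.07 (-0.14 to 0.28), all with overlapping groups.

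Irak1 differed by 0.18 with LPS (interval -0.02 to 0.37, adjusted p = 0.524). Its 3 KO arrays with Kdm5d above Xist, at 9.73, 9.79 and 9.63, lay above all wild-type arrays with LPS, whereas KO array 4, with Xist above Kdm5d, stood at 9.48. Over the arrays with Xist above Kdm5d, with 1 KO array in each state, the difference with LPS was -0.002. No such split was seen without LPS. There the KO arrays numbered 1 to 3 (9.55, 9.69 and 9.67) and 4 (9.60) all lay within the wild-type range of 9.51 to 9.86. The part of sex in this X-linked transcript was not tested further.

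Without LPS, again 0 of 9 genes were called, where 1.0% of all genes were in the limma fit (0.14% higher and 0.863% lower in KO). Unadjusted p was under 0.05 for 3 of them, Irak3, Myd88 and Ticam1, as for 7.83% of all genes. All but Traf6 had negative differences, 8 of 9 beside 48.7% of all genes, and the median was -0.19 beside 0.004. Among the 8, Irak1 (0.0 as rounded), Irak2 (-0.01) and Ly96 (-0.05) lay near 0. Their sign changed in 5, 5 and 4 of 28 alternatives, so the count does not show a fall shared by the set.

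Irak3 had the largest difference in this state. Its 4 unstimulated KO arrays, at 10.15 to 10.29, were all below the wild-type arrays, at 10.43 to 10.95, and the difference was -0.46 ± 0.118 (1.37-fold, interval -0.70 to -0.21, adjusted p = 0.0877). KO minus wild type was -0.66, -0.70, -0.14 and -0.32 for numbers 1 to 4. With the replicate block the difference was -0.46 ± 0.102 and called (adjusted p = 0.03). It was also called with each array centred on its median (-0.49, 0.049) and without wild-type array 3 (-0.54, 0.0424) or wild-type array 4 (-0.53, 0.0448). The difference was -0.58 with a sex term (adjusted p = 0.059) and -0.38 with that term and the block (0.314). Adjusted p was 0.33 when only the 10 arrays in which Xist exceeded Kdm5d were kept (difference -0.54, each lone KO array assumed to vary like the other groups).

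For Myd88 the 4 unstimulated KO arrays, at 10.66 to 10.82, were all below the wild-type arrays, at 10.95 to 11.41, and the difference was -0.38 ± 0.0987 (1.3-fold, interval -0.58 to -0.17, adjusted p = 0.0952). With the replicate block adjusted p was 0.0502. With a sex term the Myd88 difference was -0.31 (adjusted p = 0.203), and with that term and the block -0.24 (0.448). Over the arrays with Xist above Kdm5d, with 1 KO array in each state, it was -0.3. Ticam1 lay at 8.28 to 8.61 in KO cells and at 8.65 to 8.79 in wild-type cells, with no overlap and a difference of -0.28 ± 0.0929 (adjusted p = 0.268). Tirap differed by -0.23 (interval -0.48 to 0.02) and Ticam2 by -0.19 (-0.40 to 0.02), each lower in KO for 4 of 4 numbers. Irak1 (interval -0.20 to 0.19), Irak2 (-0.22 to 0.20), Ly96 (-0.28 to 0.18) and Traf6 (-0.20 to 0.41) had overlapping groups.

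**Figure D3:**
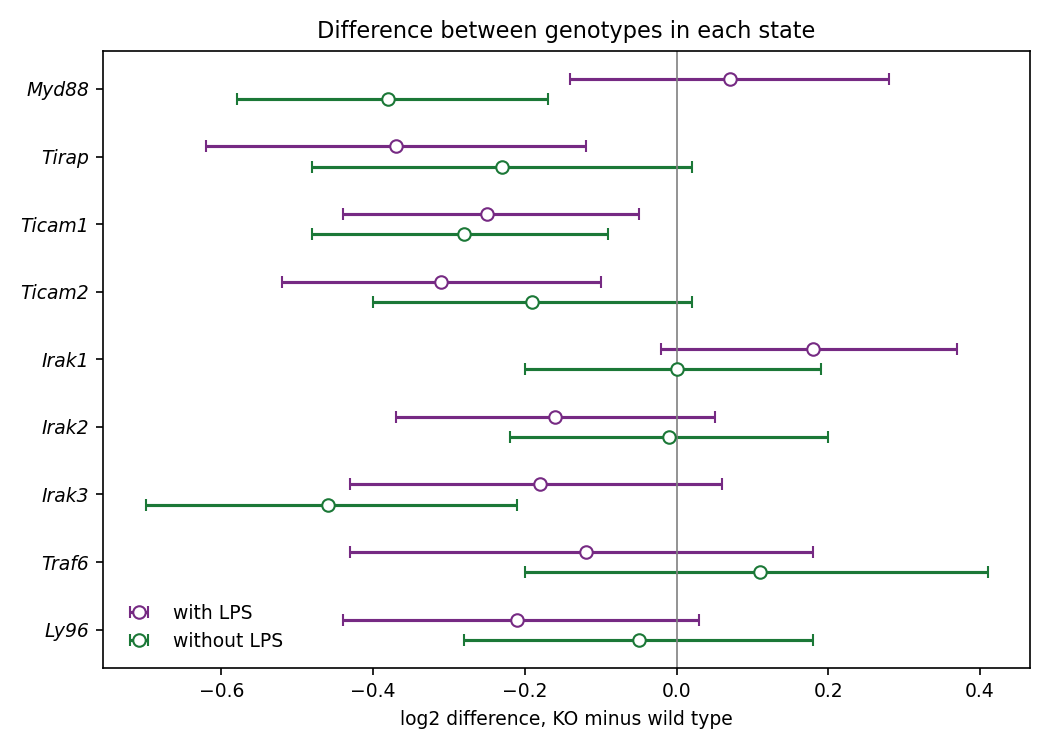
Log2 difference between KO and wild type (horizontal axis) for each gene with LPS (upper, purple) and without LPS (lower, green), with 95% intervals of single genes from the limma fit. All points are open because no adjusted p was under 0.05, although the intervals of Tirap, Ticam1 and Ticam2 with LPS and of Irak3, Myd88 and Ticam1 without it exclude 0.

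The last comparison sets the LPS response of KO cells against that of wild-type cells. Among the 9 genes 0 were called for the difference in response, where 1.29% of all genes were in the limma fit (0.988% with a more positive response in KO and 0.301% with a more negative one). Unadjusted p was under 0.05 for 1 of them, Myd88, as for 10.3% of all genes. For Myd88 the response in KO cells minus that in wild-type cells was 0.45 ± 0.14 on the log2 scale (interval 0.15 to 0.74, adjusted p = 0.165), and none of the 27 alternatives run called it. The difference in response was 0.27 ± 0.167 for Irak3 (adjusted p = 0.668), -0.15 ± 0.144 for Irak2 (0.825), -0.14 for Tirap, -0.12 for Ticam2, 0.04 for Ticam1, 0.18 for Irak1 and -0.16 for Ly96. The intervals of these 7 genes span 0 and reach as far as -0.50 and 0.62.

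The rest of the pathway, taken from lists of its receptors, kinases, ubiquitin enzymes and inhibitors, moved in both directions with LPS. Of 15 measured Toll-like receptors and partners, 5 rose and 4 fell in KO cells, and 4 rose and 7 fell in wild-type cells. Over all genes 24.7% were called in KO and 30.8% in wild-type cells, the shares beside which the counts of each list stand. Tlr4 itself, the receptor for LPS, fell in both genotypes, with log2 differences of -1.02 in KO and -1.33 in wild-type cells. Cd14, which delivers LPS to Ly96, rose 4.08-fold in KO and 2.05-fold in wild-type cells. Tlr1 rose 3.58-fold and 3.13-fold, and Tlr13, a sensor of bacterial RNA, fell (-1.13 and -1.68), in KO and wild-type cells in that order. The IL-1 receptor family, some members of which also signal through Myd88 and IRAK kinases, had 6 of 8 listed genes measured. Of these 6, 0 were called in KO cells and 1 in wild-type cells, Il1rap with a rise of 0.69. Group means were 5.51 to 5.66 for Il1r2 and 5.51 to 5.73 for Il18rap. These are dim beside the median of 7.11 over all genes.

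Among 12 downstream kinases and partners, 5 rose and 2 fell in KO cells and 7 rose and 3 fell in wild-type cells. The kinases of the Ticam1 route were among those that rose, Ikbke by 1.28 and 1.16 and Tbk1 by 0.64 and 0.69 in KO and wild-type cells. The TRAF and ubiquitin list had 7 rises and 2 falls of 11 in each genotype. Traf1 rose by 3.90 and 3.14, Peli1, a ligase that modifies IRAK proteins, by 2.11 and 1.96, and its relative Peli2 fell (-1.45 and -1.57). Of 12 inhibitors of the pathway, 7 rose and 2 fell in KO cells and 6 rose and 2 fell in wild-type cells, with Tnfaip3 (A20) up 6.31-fold and 7.8-fold and its partner Tnip1 4.45-fold and 4.73-fold. The median log2 changes in KO and wild-type cells were 0.73 and 0.89 for the TRAF list, 0.35 and 0.25 for the inhibitors, 0.27 and 0.35 for the downstream kinases, -0.05 and -0.12 for the receptors and 0.0 and 0.18 for the IL-1 receptor family.

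Between the genotypes, 4 of 15 receptors and partners, 1 of 11 TRAF and ubiquitin genes and 3 of 12 inhibitors were called with LPS, where 3.05% of all genes were. Without LPS the counts were 3, 1 and 0, where 1.0% of all genes were called. With LPS the count of receptors was 0 with the sex term and block and 0 over the arrays with Xist above Kdm5d, and that of inhibitors was 0 in both and with the sex term alone. The TRAF count with LPS was 0 over the arrays with Xist above Kdm5d. Without LPS the receptor count was 1 in both settings. Without LPS, Cd14 was lower in KO cells by a log2 difference of -1.20 (adjusted p = 5.13e-05), Traf1 by -1.74 and Tlr7 by -0.62. With LPS, Traf1 was lower (-0.98), and Tlr13 (0.76) and Cd180 (0.59) were higher. Over the arrays with Xist above Kdm5d, with 1 KO array in each state, these differences were -1.089 for Traf1 with LPS (adjusted p = 0.09), -0.536 for Tlr7 without LPS (0.181), 0.838 for Tlr13 (0.169) and 0.533 for Cd180 (0.297), and the calls were lost. With the sex term and the block they were -0.675 for Tlr7 (0.0964), 0.611 for Tlr13 (0.118) and 0.476 for Cd180 (0.225). Cd180 was not called either with the sex term alone (0.555, 0.0669) or in the fit of only the 8 arrays (0.59, 0.0528). Tlr9 was also lower without LPS (-0.85), a call lost without array 1 of unstimulated KO cells or array 1 or 2 of unstimulated wild-type cells (adjusted p = 0.07, 0.0681 and 0.0643). The Tlr9 call was lost as well with the sex term (-0.666, 0.112), with that term and the block (-0.599, 0.342), over the arrays with Xist above Kdm5d (-0.483, 0.431), in the fit of only the 8 arrays (0.109) and with all probe sets tested (0.0668). With LPS, Tlr3 (0.73) and Cyld (0.46) were higher in KO cells and Tlr7 (-0.36), Tnfaip3 (-0.54) and Tnip1 (-0.38) lower, but 9, 6, 9, 11 and 4 of the 16 arrays, left out singly, each ended the call (adjusted p between 0.0513 and 0.184). No downstream kinase or IL-1 receptor gene was called for the genotype in either state.

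**Figure D4:**
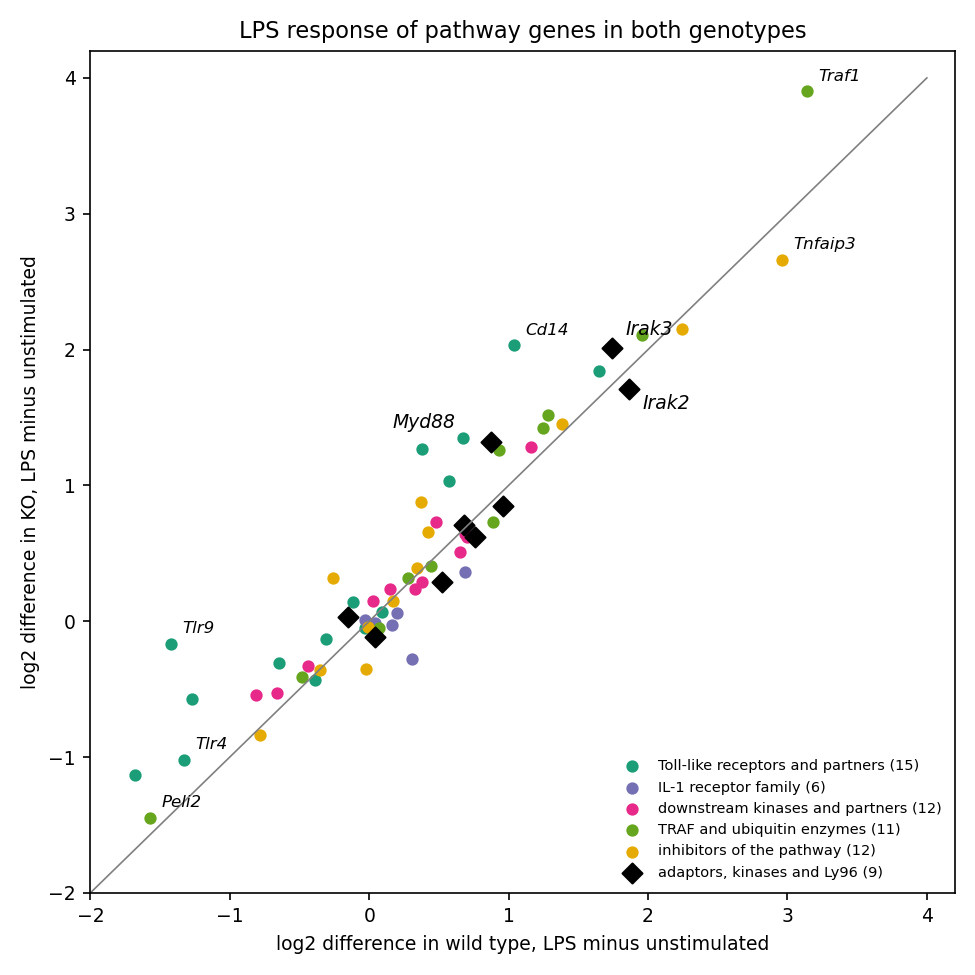
Log2 difference between LPS and unstimulated cells in KO (vertical axis) against that in wild-type cells (horizontal axis), 1 point per gene, for the 9 adaptors, kinases and Ly96 (diamonds) and 5 lists of pathway genes (coloured circles), with the line of equal response. Irak3, Irak2 and Myd88 lie at 2.01, 1.71 and 1.32 on the KO axis, below Traf1 at 3.90 and Tnfaip3 at 2.66.

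Over the 16 arrays the genes with the pattern most like Irak3 were Acsl5 (Pearson r = 0.991), Lpar1 (0.99) and Tnip3 (0.989). Irak2 was matched by Ccrl2 (0.997), Klf7 (0.995) and Ets2 (0.994), and Myd88 by Oasl1 (0.989), Cxcl10 (0.988) and Acod1 (0.987). Oasl1, a gene of the interferon response, had mean log2 levels of 11.44 and 11.49 in KO and wild-type cells with LPS, and 8.48 and 9.47 without. Its unstimulated KO group was the lowest of the 4, as for Myd88, to which it was matched on these same arrays. That group was also the lowest for Irak3, Tirap, Ticam1 and Ticam2. For Irak2 it was lowest only by a mean of 10.178 against 10.187 in unstimulated wild-type cells. The sign of that Irak2 difference changed in 5 of 28 alternatives. These coefficients describe 16 points that share 4 groups and a large split by LPS. Within the set, Myd88 and Irak3 correlated at 0.98 over the arrays and at 0.59 after the group means were removed, whereas Irak2 and Irak3 gave 0.97 and 0.15. Myd88 and Irak2 gave 0.93 and -0.29. The value of 0.59 was not particular to its pair: Ticam1 and Irak2 gave 0.62 after removal, and Myd88 and Ly96 0.6.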

How the data were processed

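RNA from 16 samples was measured on 1 array each. The deposited values are log2 expression levels per probe set, and per the submitters' processing notes the tool was RMA, with no version stated there. This method brings arrays to a common distribution, which removes a shift shared by all genes, and shrinks changes of dim ones. Array medians ran from 6.76 to 6.86. Precision is limited by having 4 arrays per group. The platform annotation gave 1 gene for 21640 of 34760 probe sets, several for 1321, and did not list 11799. For a gene with several probe sets (954 of 19937) the one with the highest mean was kept, and symbols were looked up in a RefSeq table of GRCm38.p6, which changed 0.

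One limma 3.58.1 model in R 4.3.3 with a mean per group was fitted to all arrays and genes, and Benjamini-Hochberg adjusted p under 0.05 made a call. Intervals are 95%, for single genes. Levels were not compared between genes. On simulated data with 19937 genes it recovered 45% of changes of 0.5 and 92% of changes of 1 for KO against wild type with LPS, and 12% and 77% for the difference in response. The simulated errors were independent, without the structure by replicate number or sex seen in the arrays. No member differed between genotypes by more than the -0.46 of Irak3, below the smallest simulated size. Recovery of changes below 0.5 was not tested, so a member without a call may still differ between the genotypes. Members and lists were chosen with earlier results of these data known. All measured members were named, and pathway genes followed a written rule (up to 4 per list with the smallest p for the average LPS effect, and those called between genotypes), with some left out for length. Replicate numbers come from the titles: deviations from group means correlated between same-numbered KO and wild-type arrays by 0.186 to 0.518 with LPS and 0.16 to 0.442 without, so they pair the arrays there. Arrays of a group differed by an SD of at least 0.172, so none was a duplicate. Alternatives are given in the closing section.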

Additional observations from a re-analysis of the deposited data

Results flagged for a closer look

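Outside the 9 adaptor, kinase and co-receptor genes, 2 pathway genes had a response to LPS that differed between the genotypes by the test of the difference itself. Cd14 rose more in KO cells, by 0.99 on the log2 scale (limma adjusted p = 0.016). It stood at 12.57, 12.53, 12.58 and 12.76 in KO cells with LPS and at 12.70, 12.96, 12.77 and 12.86 in wild-type cells with LPS, and without LPS at 10.05, 10.81, 10.62 and 10.86 in KO and 11.78, 11.82, 11.69 and 11.85 in wild-type cells. For Tlr9 the difference in response was 1.25 (adjusted p = 0.0145), with means of 9.99 and 9.59 with LPS and 10.16 and 11.01 without, in KO and wild-type cells. Each kept its call in 25 of 27 alternatives. With all probe sets tested adjusted p was 0.0584 for both, and over the arrays with Xist above Kdm5d, with 1 KO array in each state, the difference in response was 0.868 for Cd14 (0.296) and 0.889 for Tlr9 (0.564). Among 36 sets of 4 arrays of the 9 genes, 0 were flagged for a single outlying array. The test took the gap to the nearest array as a share of the range. With 4 arrays it flags only extreme gaps, so it does not show that no array stood apart. Tirap in wild-type cells with LPS was not flagged, with array 4 at 9.83 and the others at 10.14 to 10.20.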

How the results depend on the processing

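Of 1251 values recomputed for the 9 genes under the alternatives, 1212 kept their direction and their side of the threshold. For LPS, the number of called genes was 7 in wild-type cells under every alternative run, and in KO cells it lay between 5 and 7. Tirap lost its KO call over the arrays with Xist above Kdm5d (0.669), a fit with 1 KO array in each state. Of the pathway genes named for LPS, Tbk1 (0.566) and Tlr13 (-1.079) lost their KO calls there too. Fewer downstream kinases and inhibitors were called for LPS in KO cells in that fit. With the replicate block the counts for LPS did not change. For KO against wild type with LPS the count of 0 became 1 with the replicate block, and 0 to 2 when single arrays were left out. Without LPS it became 1 with the replicate block and 1 with median centring, and 0 to 1 when single arrays were left out. The added calls were Tirap, Ticam2 and Irak3, with values given above. The block changed no other call of a member; it added calls to the receptor list for the difference in response (4 in place of 2) and to the TRAF list (1 in place of 0).

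Sign changes were confined to genes that were not called in either fit. With quantile normalisation these were Ly96 (-0.105 for LPS in wild type, 0.015 for KO against wild type without LPS), Irak1 (-0.082 for LPS in KO, 0.089 without LPS), Irak2 (0.083 without LPS) and Ticam1 (-0.045 for the difference in response). Without the arrays numbered 4 they were Irak1 (0.084) and Irak2 (0.086) without LPS and Ticam1 (-0.006) for the difference in response. Over the arrays with Xist above Kdm5d, Irak1 was at -0.123 for LPS in KO and -0.002 for KO against wild type with LPS, and Irak2 at 0.08 for the difference in response. With the sex term Traf6 and Ly96 were at -0.015 and 0.032 without LPS, and with the block beside it Irak1 was at -0.085 with LPS and Ly96 at 0.026 without. With single arrays left out, Ly96 ranged from -0.062 to 0.107 for LPS in wild type and from -0.151 to 0.018 for KO against wild type without LPS, Irak1 from -0.013 to 0.092 for LPS in KO and from -0.042 to 0.076 without LPS, Irak2 from -0.095 to 0.087 without LPS, and Ticam1 from -0.014 to 0.094 for the difference in response. The cause was not tested.

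Calls over all genes moved by more than 1.5 times in the genotype comparisons: 609 with LPS against 950 with the block, 400 with all probe sets, 142 with sex term and block, 89 over the arrays with Xist above Kdm5d, 394 without KO LPS array 1 and 308 without wild-type LPS array 2; 200 without LPS against 327, 111, 84 and 58 in the same settings, 91 in the fit of only the 8 arrays, 359 with the sex term, and 116, 128 and 116 without KO array 1, wild-type array 1 or 2; and 257 for the difference in response against 451, 59, 469 and 4, 153 without the arrays numbered 4, and 133 to 168 without KO array 1 or wild-type array 2 of either state or KO LPS array 1, 2 or 3. For LPS in KO cells there were 1962 calls over the arrays with Xist above Kdm5d, against 4919 over all. For the difference in response, 122 genes were higher and 80 lower with quantile normalisation, against 197 and 60. Results for pathway lists were recomputed after the data had been seen.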
